A study of Mus musculus with 12 samples.

Results

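Neural progenitor cells of the mouse strain 129/Ola were profiled on 12 one-colour Agilent arrays, and the genes for subunits of the ionotropic and metabotropic glutamate receptors and of the GABA-A receptors are described here. The members were all non-control probes whose gene name begins with Gria, Grik, Grin, Grid or Gabr, or is Grm followed by a number. That rule gave 83 probes for 46 gene names, out of 41174 probes for 27962 gene names on the array, and values are given here for 67 probes of 40 of those names, which are the members counted from here on. The rule also takes in Grina, an NMDA receptor-associated membrane protein that is not a receptor subunit. The GABA-B receptor genes begin with other letters and were counted among the partner genes.

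Cultures were infected with a retrovirus (pMXs-IRESNeo) carrying the open reading frame of 1 transcription factor each: Pax6 and Hmga2 (slide 1 of the arrays), Gatad2b, Etv6, Esx1 and Nfxl1 (slide 2), or Crebzf, Pdx1, Sox11 and Zfp451 (slide 3). The controls, on slide 1, carried EGFP or were labelled mock. Each of these 12 groups held 1 array, so no value has an error between cultures and no test was possible. In the infected cultures about 95% of the cells expressed the insert, G418 was added 24 h after infection to remove cells without it, and RNA was taken at 72 h. The labels leave unsaid whether the mock culture met a virus or G418. The insert was expressed from the vector and not from the factor's own locus.

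The arrays lay on 3 slides of 4. Slides 2 and 3 held no control, so a difference from the controls cannot be told apart from a slide difference there unless arrays of 1 slide differ among themselves. Between 62.5% and 69.1% of all probes were well above background on an array, signal at the 75th percentile was 792.0 to 968.1 units, and 0 spots were saturated. Of 24 probes named for 8 of the factors, 0 exceeded each of the 11 remaining arrays 2-fold where their own factor was inserted, and 3 were highest there. Whether those probes lie inside the inserted reading frames was not tested, so arrays are called by their labels. Of 10 neural progenitor markers, 8 to 10 were well above background on each array, among them Nes, Sox2 and Vim on all 12.

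Glutamate opens the ionotropic receptors, cation channels built from subunits of the AMPA, kainate and NMDA classes, and acts through G proteins at the metabotropic receptors. GABA opens the GABA-A receptors, chloride channels assembled mostly from alpha, beta and gamma subunits. Neurons use the ionotropic glutamate receptors and the GABA-A receptors for fast synaptic transmission. In progenitor cells GABA and glutamate signals are known to influence proliferation and differentiation.

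Most receptor probes gave no measurable signal in these cells. Of the 67 member probes, 40 (59.7%) were well above background on no array, 16 (23.88%) on 1 to 11 arrays and 11 (16.42%) on all 12. Over all probes of the array those shares were 23.77%, 16.95% and 59.28%. By gene, 10 of 40 had a probe well above background on all 12 arrays, 22 on at least 1 and 18 on none. The number of member probes well above background was 20 on Pax6, 17 on Hmga2, 15 on Gatad2b, 16 on Etv6, 21 on Esx1, 12 on Nfxl1, 17 on Crebzf, 21 on Pdx1, 21 on Sox11 and 19 on Zfp451, against 19 on EGFP and 14 on mock.

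The 18 undetected genes fell in most classes. They were the AMPA gene Gria1, the delta gene Grid1, the kainate genes Grik1, Grik2 and Grik3, and the NMDA gene Grin2a. They also included 5 metabotropic genes (Grm2, Grm3, Grm4, Grm6 and Grm8) and 7 GABA-A genes (Gabra2, Gabra4, Gabra6, Gabrb1, Gabrg1, Gabrq and Gabrr2). A dim probe has only an upper bound, and a probe can be dim because it binds poorly, so these genes are not shown to be silent. The classes with the most detected probes were NMDA, with 8 of 11 probes on at least 1 array, and the GABA-A subunits outside the alpha, beta, gamma and rho groups, with 4 of 5.

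**Figure D1:**
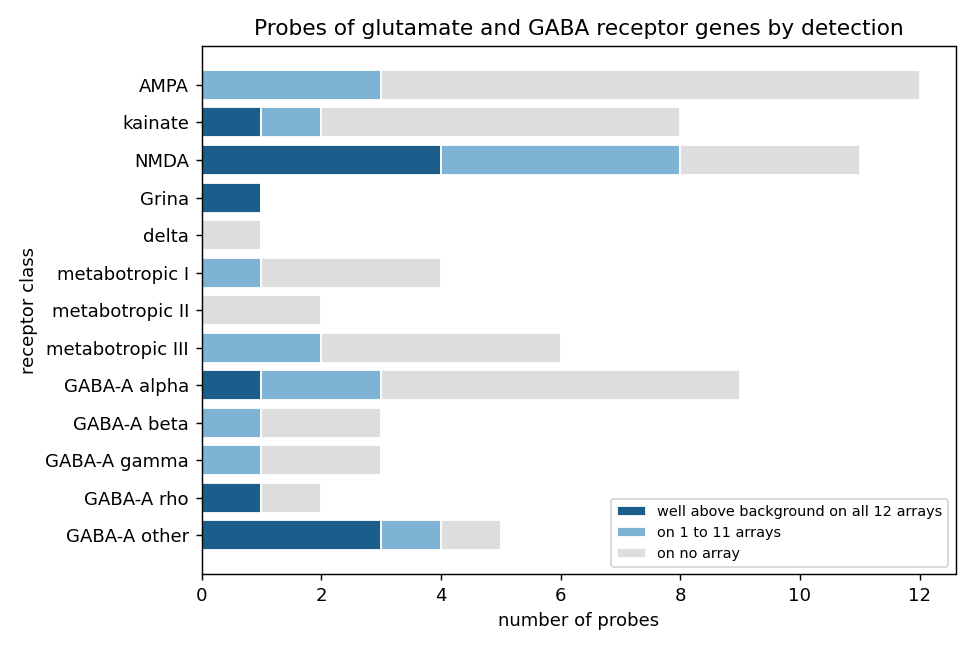
Number of probes (horizontal axis) of each receptor class (vertical axis), split by whether the probe was well above background on all 12 arrays, on 1 to 11 or on none. NMDA and GABA-A subunits hold most of the probes detected on all 12 arrays, and no AMPA, delta or metabotropic probe is among them.

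A level is the log2 of a probe's signal minus the log2 of its array's 75th percentile, so 0 is that percentile and each step of 1 is a doubling. On a dim probe the level was set no lower than the faintest signal well above background on that array, a floor between -6.88 and -6.38. A difference is the level on a factor's array minus the mean of the EGFP and mock levels. A probe was called higher or lower on a factor's array when it stood at least 2-fold above, or below, both EGFP and mock, with the brighter side well above background. Where the dimmer side was not well above background, the fold is a lower bound and is written as "at least". Levels of different probes are not compared, because probes differ in how well they bind.

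By these rules 6 probes of 6 genes were called on at least 1 factor array, in 21 probe and array pairs higher and 7 lower. Higher calls numbered 2 on Pax6 (7.73% of all probes were called higher there), 4 on Esx1 (7.46%), 4 on Crebzf (6.82%), 3 on Pdx1 (6.81%), 4 on Sox11 (6.72%) and 4 on Zfp451 (6.72%). They numbered 0 on Hmga2 (0.306%), Gatad2b (0.442%), Etv6 (0.731%) and Nfxl1 (0.204%). As shares of the 67 members these counts were 2.99% on Pax6, 5.97% on Esx1, Crebzf, Sox11 and Zfp451, and 4.48% on Pdx1. Read against the shares of all probes, which were larger on each of these 6 arrays, the counts are not a result about receptor genes as a class.

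Lower calls numbered 1 on Etv6 (0.532% of all probes), 1 on Esx1 (5.37%), 2 on Nfxl1 (0.673%), 1 on Crebzf (4.46%), 1 on Sox11 (4.90%) and 1 on Zfp451 (4.33%). They numbered 0 on Pax6 (4.53%), Hmga2 (0.330%), Gatad2b (0.678%) and Pdx1 (4.83%). Over the 11 member probes detected on all arrays, the median difference ran from -0.67 on Nfxl1 and -0.51 on Etv6 to 0.11 on Pax6. Over all 24410 such probes the median ran from -0.13 on Sox11 to 0.01 on Gatad2b, and it was -0.10 to -0.13 on Esx1 and the slide 3 arrays. The differences below are not shifted for those medians.

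The control arrays show how far 2 arrays of 1 slide differ with no factor between them. Over the 24410 probes detected on all arrays, EGFP and mock differed by a median of 0.07 in absolute log2, and 61 probes differed at least 2-fold. Over the 11 member probes detected on all arrays the median was 0.16, and 0 differed 2-fold.

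**Figure D2:**
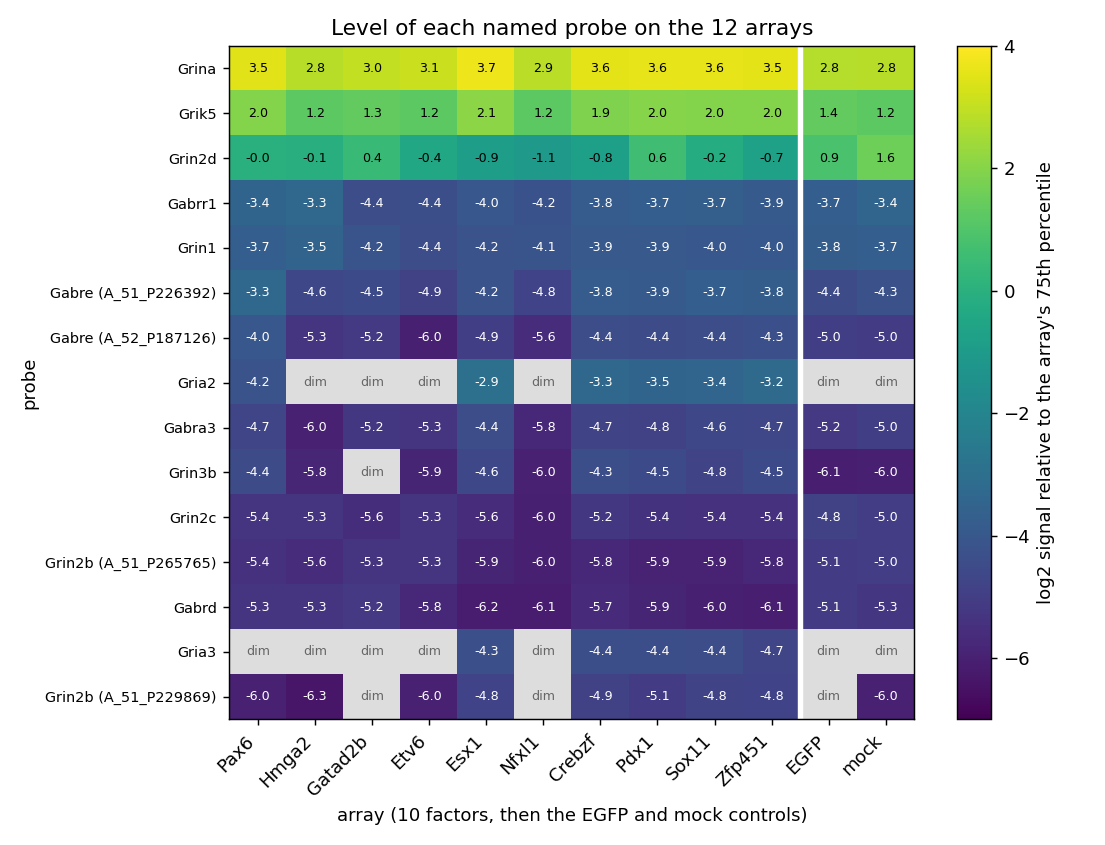
Level of each probe named in the text (vertical axis) on the 10 factor arrays and then the EGFP and mock arrays (horizontal axis), coloured and printed as log2 signal relative to the array's 75th percentile; grey cells were not well above background. Gria2 and Gria3 are grey on EGFP and mock and coloured on Esx1, Crebzf, Pdx1, Sox11 and Zfp451.

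AMPA receptor subunits carry most fast excitatory transmission. The AMPA gene detected on the most arrays was Gria2, whose subunit, once its RNA is edited, makes the channel nearly impermeable to calcium. Its probe A_52_P575176 lies on chromosome 3 at positions 80793353 to 80793412 in mm7. The level was -4.18 on Pax6, -2.93 on Esx1, -3.32 on Crebzf, -3.47 on Pdx1, -3.43 on Sox11 and -3.21 on Zfp451. On Hmga2, Gatad2b, Etv6 and Nfxl1, and on EGFP and mock, the probe was not well above background. Its level there was set to the floor, so the gap to the 6 arrays with signal follows in part from the detection rule. How many of all probes part the arrays this way was not counted. The folds over the controls were at least 5.43 on Pax6, at least 12.9 on Esx1, and between at least 8.87 and at least 10.6 on the slide 3 arrays. The other 2 Gria2 probes were dim on all 12 arrays, so these values rest on 1 probe. The call on Pax6 was lost under normexp background correction, another way to remove background, which left a log2 difference of 0.69. The 4 slide 3 calls were lost with levels centred within slides, which left 0.47 to 0.73.

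The promoter of Gria2 is shown because the gene had the largest folds among the probes that were dim on both controls. It is taken from RefSeq (GRCm38.p6, chr3:80802786-80803085, minus strand), covers 250 bases before to 50 after the start and is written in the direction of transcription. Capitals mark a match on the opposite strand to the core of RE1, the element bound by the repressor REST, searched as AGCACC, any 2 bases and GGACAG.
Gria2: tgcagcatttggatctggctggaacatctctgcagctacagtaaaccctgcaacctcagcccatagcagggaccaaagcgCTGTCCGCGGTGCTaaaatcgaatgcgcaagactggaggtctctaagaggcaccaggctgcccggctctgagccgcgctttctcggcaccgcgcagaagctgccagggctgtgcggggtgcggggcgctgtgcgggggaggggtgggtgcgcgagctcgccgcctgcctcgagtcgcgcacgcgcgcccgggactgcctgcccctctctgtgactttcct
The match begins 170 bases before the start. Both strands were searched, and 17 of 32851 promoters (0.0517%) held these letters. Of the 29 receptor genes with a promoter in the table (36 promoters), Gria2 alone had a match. The 17 promoters belong to 16 genes, of which 13 were on the array. Of these 13, Gria2 and Robo2, an axon guidance receptor, were called higher on at least 4 factor arrays, each on 6, against 7.14% of 27670 genes. Gria2 was picked for its folds, so its place in this count carries no weight. Osbp2 was called higher on 1 array, Lhx3 lower on 3 and Fbll1 lower on 1, all named after their values were seen. The match is a description of the sequence, and binding there was not measured.

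Gria3, another AMPA subunit, followed on fewer arrays. Its probe A_52_P272364 (chromosome X, 36704964 to 36705023 in mm7) stood at -4.30 on Esx1, -4.35 on Crebzf, -4.36 on Pdx1, -4.40 on Sox11 and -4.69 on Zfp451. It was dim on the other 5 factor arrays, Pax6 among them, and on EGFP and mock. Such a split of the arrays was not counted over all probes. The folds were at least 4.97 on Esx1 and at least 3.80 to at least 4.81 on slide 3. All 5 calls were lost under normexp (0.42 to 0.61), and centring within slides left 0.06 on Crebzf, 0.05 on Pdx1, 0.01 on Sox11 and -0.28 on Zfp451. The other 2 Gria3 probes were dim everywhere. Gria4 was measured on Hmga2 alone, by 1 of 4 probes, and was chosen here after its values were seen.

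Kainate receptors modulate transmission on both sides of the synapse. Grik5, whose subunit needs another kainate subunit to form a channel, was detected on all 12 arrays. Its levels were 1.98 on Pax6, 1.23 on Hmga2, 1.35 on Gatad2b, 1.25 on Etv6, 2.07 on Esx1, 1.23 on Nfxl1, 1.89 on Crebzf, 1.98 on Pdx1, 1.96 on Sox11 and 1.98 on Zfp451, against 1.37 on EGFP and 1.24 on mock. The levels on Pax6, Esx1 and the slide 3 arrays lie above both controls and the other 4 lie near them. The share of all probes that part the arrays this way was not counted. No difference reached 2-fold, and the largest was 1.70-fold on Esx1. Grik4, chosen after its values were seen, was measured on Pax6, Esx1, slide 3 and EGFP, was dim on mock, and was not called anywhere.

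NMDA receptors need glutamate and a co-agonist and pass calcium. Grin1, the subunit that every NMDA receptor contains, was detected on all 12 arrays. Its levels were -3.72 on Pax6, -3.51 on Hmga2, -4.16 on Gatad2b, -4.40 on Etv6, -4.20 on Esx1, -4.15 on Nfxl1, -3.92 on Crebzf, -3.92 on Pdx1, -4.00 on Sox11 and -3.99 on Zfp451, against -3.78 on EGFP and -3.71 on mock. It was called nowhere, and its largest difference was -0.65 on Etv6.

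Grin2d, a subunit of embryonic and early postnatal NMDA receptors, was the member most often called lower. Its probe A_51_P157154 lies on chromosome 7 at positions 42009107 to 42009166 in mm7. The levels were -0.02 on Pax6, -0.10 on Hmga2, 0.44 on Gatad2b, -0.39 on Etv6, -0.88 on Esx1, -1.11 on Nfxl1, -0.80 on Crebzf, 0.62 on Pdx1, -0.18 on Sox11 and -0.71 on Zfp451, against 0.85 on EGFP and 1.58 on mock. All 10 factor arrays lay below both controls, which held for 4.19% of the 24410 probes detected on all arrays. It was called lower on Nfxl1 (5.03-fold), Esx1 (4.29), Crebzf (4.07), Zfp451 (3.82), Etv6 (3.06) and Sox11 (2.64).

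Just outside the threshold were Hmga2 and Pax6, which stood 0.96 and 0.88 in log2 below the nearer control. EGFP and mock themselves differed by 0.73 for this probe, and only 0.643% of probes detected on all arrays had a gap as large. The call on Sox11 was lost when arrays were scaled by detected probes only. With levels centred within slides, Grin2d was below the control mean on 8 of 10 arrays and called on none. Its promoter is shown as that of the member called lower most often (RefSeq, GRCm38.p6, chr7:45866632-45866931, minus strand), and it held none of the 5 motifs searched, so it has no capitals.
Grin2d: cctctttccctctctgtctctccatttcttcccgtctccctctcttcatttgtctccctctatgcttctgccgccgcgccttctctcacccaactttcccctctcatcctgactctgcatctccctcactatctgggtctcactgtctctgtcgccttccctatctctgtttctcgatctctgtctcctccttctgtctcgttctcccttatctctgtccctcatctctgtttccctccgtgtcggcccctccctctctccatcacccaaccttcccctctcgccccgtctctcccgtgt
The other motifs searched, on both strands, were GGGCGG (the GC box, in 35.7% of promoters), TATAAA (13.6%), TGACGTCA (the cyclic AMP response element, 1.79%) and CACGTG (an E-box, 7.15%). No match says only that these letters are not in this window.

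Grin3b, a glycine-binding NMDA subunit known from motor neurons, went the other way. Its probe A_51_P397934 (chromosome 10, 79757113 to 79757172 in mm7) stood at -4.44 on Pax6, -5.82 on Hmga2, -5.87 on Etv6, -4.60 on Esx1, -5.98 on Nfxl1, -4.35 on Crebzf, -4.52 on Pdx1, -4.76 on Sox11 and -4.52 on Zfp451, was dim on Gatad2b, and stood at -6.08 on EGFP and -6.05 on mock. The levels on Pax6, Esx1 and the slide 3 arrays were the highest. On these arrays 6.72% (Sox11) to 7.73% (Pax6) of all probes were called higher. How many of all probes part the arrays this way was not counted. The folds over the controls were 3.07 on Pax6, 2.76 on Esx1, 3.28 on Crebzf, 2.91 on Pdx1, 2.46 on Sox11 and 2.92 on Zfp451. All 6 calls were lost under normexp (0.33 to 0.47), and the 4 slide 3 calls were lost with levels centred within slides (0.24 to 0.65). Its promoter (RefSeq, GRCm38.p6, chr10:79970474-79970773, plus strand) is shown beside that of Grin2d because they are NMDA subunits called in opposite directions, and capitals mark TATAAA.
Grin3b: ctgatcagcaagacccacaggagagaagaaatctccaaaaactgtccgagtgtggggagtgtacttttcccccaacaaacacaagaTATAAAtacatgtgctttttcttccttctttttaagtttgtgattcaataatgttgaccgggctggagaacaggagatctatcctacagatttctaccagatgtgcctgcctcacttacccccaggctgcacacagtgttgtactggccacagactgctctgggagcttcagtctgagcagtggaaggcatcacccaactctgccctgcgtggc
This match begins 164 bases before the start.

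Grin2b, which pairs with Grin1 in embryonic forebrain, gave opposite answers by probe. Probe A_51_P229869, designed on a cDNA record, stood at -4.78 on Esx1, -4.86 on Crebzf, -5.06 on Pdx1, -4.75 on Sox11 and -4.77 on Zfp451, between -6.33 and -5.98 on Pax6, Hmga2 and Etv6, and at -6.01 on mock, and was dim on Gatad2b, Nfxl1 and EGFP. It was called higher on Esx1 (at least 2.90-fold), Crebzf (at least 2.75), Sox11 (at least 2.96) and Zfp451 (at least 2.92), while Pdx1, at least 2.39-fold above the control mean, missed the call against mock. The 4 calls were lost under normexp (0.12 to 0.30) and with levels centred within slides (0.08 to 1.23). Probe A_51_P265765, of the RefSeq transcript, lay between -6.03 and -5.29 on the factor arrays, against -5.07 on EGFP and -5.00 on mock. Its listed position covers only 11 bases (135746934 to 135746944 in mm7), where the cDNA probe covers 60, and its placement was not tested.

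That RefSeq probe was below both controls on all 10 factor arrays and called on none, with a largest difference of -0.997 on Nfxl1. Under normexp background correction it was below on 9 of 10 arrays, and with levels centred within slides on 8. Its difference was negative on each of the 4 arrays where the cDNA probe was called higher. The 2 probes lie 440834 bases apart on chromosome 6 in mm7 (136187779 to 136187838 for the cDNA probe), and whether they report the same transcript was not tested. The other 2 Grin2b probes were dim, except for 1 of them on EGFP. Grin2b is therefore given with no direction.

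Grin2c, a subunit of cerebellar granule cells, lay between -6.03 and -5.20 on the factor arrays, against -4.85 on EGFP and -5.01 on mock. It was below both controls on all 10, and on 8 of 10 under normexp and 9 of 10 centred within slides, by the control mean. It was called lower on Nfxl1, by 2.14-fold, a call lost under normexp, quantile normalization and centring within slides. Grina, which belongs to a family of membrane proteins linked to protection from cell death, was also detected on all 12 arrays. Its levels were 3.49 on Pax6, 2.84 on Hmga2, 3.0 on Gatad2b, 3.12 on Etv6, 3.70 on Esx1, 2.87 on Nfxl1, 3.56 on Crebzf, 3.61 on Pdx1, 3.58 on Sox11 and 3.53 on Zfp451, against 2.77 on EGFP and 2.81 on mock. All 10 lay above both controls, as for 2.55% of probes detected on all arrays. With levels centred within slides, 9 of 10 lay above the control mean. No difference reached 2-fold, and the largest was 1.88-fold on Esx1.

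Metabotropic receptors were barely measured. Of the 7 metabotropic genes, Grm5 and Grm7 had a probe well above background, Grm5 on Pdx1 alone and Grm7 on 8 arrays. No metabotropic probe was called. These genes were named after their values were seen.

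Among GABA-A subunits, alpha subunits set the affinity for GABA and much of the drug binding, and beta subunits help to form the GABA site. Gabrb2, a beta subunit gene named after its values were seen, was well above background on Pax6, Esx1 and the slide 3 arrays and dim on the others and on both controls. This split of the arrays was not counted over all probes. Gabrb2 was not called, and its largest difference was at least 1.66-fold on Pdx1.

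Gabra3, an alpha subunit gene on chromosome X, was called nowhere. Its levels were -4.69 on Pax6, -5.98 on Hmga2, -5.20 on Gatad2b, -5.30 on Etv6, -4.42 on Esx1, -5.79 on Nfxl1, -4.74 on Crebzf, -4.82 on Pdx1, -4.63 on Sox11 and -4.67 on Zfp451, against -5.15 on EGFP and -4.97 on mock. Gabre, the epsilon subunit, lies near it on chromosome X and has 2 probes detected on all arrays. Probe A_51_P226392 stood at -3.34 on Pax6, -4.63 on Hmga2, -4.52 on Gatad2b, -4.85 on Etv6, -4.18 on Esx1, -4.78 on Nfxl1, -3.81 on Crebzf, -3.88 on Pdx1, -3.72 on Sox11 and -3.77 on Zfp451, against -4.43 on EGFP and -4.26 on mock. For Gabra3 and for both Gabre probes, the 6 factor arrays Pax6, Esx1, Crebzf, Pdx1, Sox11 and Zfp451 lay above both controls and the other 4 factor arrays below both. How many of all probes lie this way was not counted. For Gabra3, with levels centred within slides, 2 arrays lay above the control mean and 8 below.

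The Gabre differences on Pax6 were 1.004 for this probe and 0.99 for A_52_P187126, just short of a call against both controls. On Etv6 probe A_52_P187126 was just short in the opposite direction, with a difference of -1.02. Gabrd, the delta subunit of extrasynaptic receptors, ran from -6.18 on Esx1 to -5.16 on Gatad2b over the factor arrays, against -5.07 on EGFP and -5.28 on mock, and its difference of -1.003 on Esx1 was also just short of a call. Gabrr1, a rho subunit known from retina, ran from -4.41 on Gatad2b to -3.30 on Hmga2, against -3.73 on EGFP and -3.40 on mock. Neither was called on any array. Of the remaining GABA-A genes with a signal, Gabra5, Gabrg3 and Gabrp were measured on 5 to 9 arrays and called on none, and they too were named after their values were seen.

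**Figure D3:**
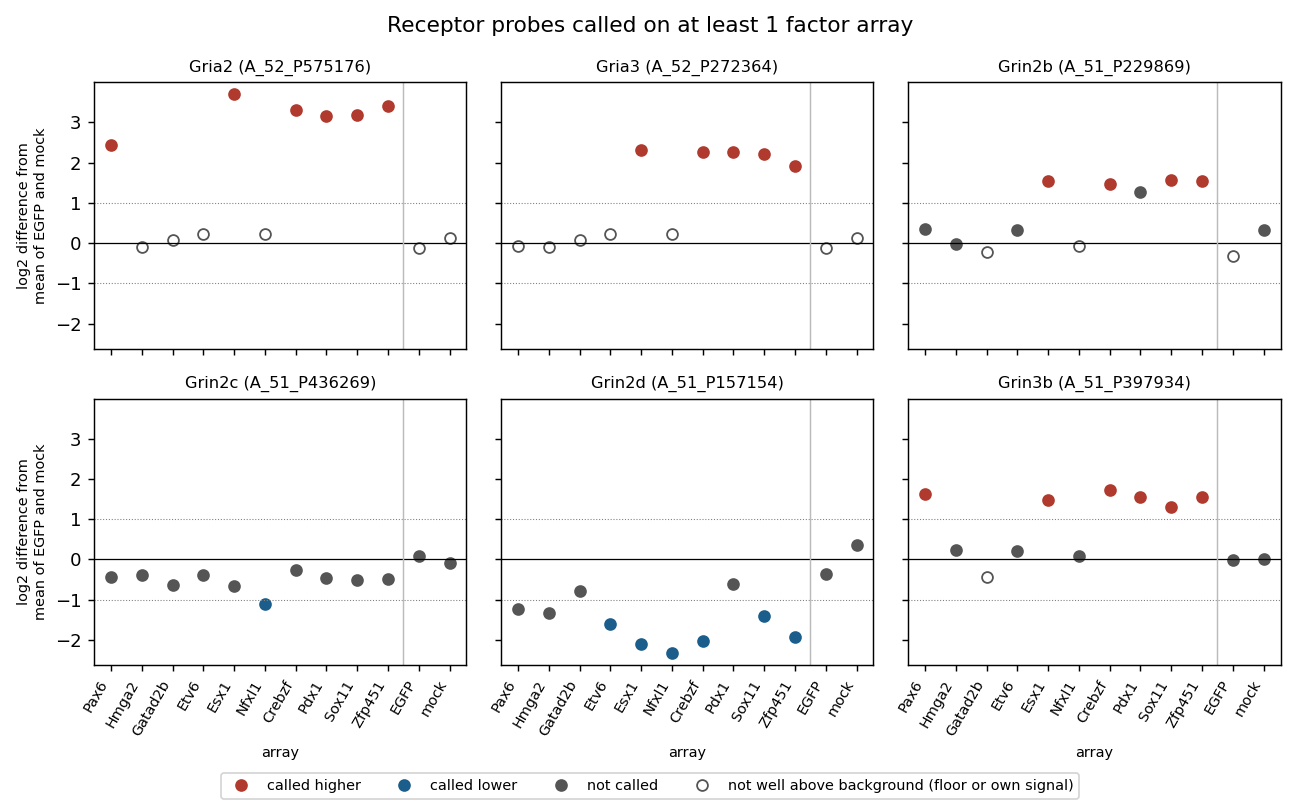
Difference in log2 from the mean of EGFP and mock (vertical axis) on the 10 factor arrays and both controls (horizontal axis) for the 6 receptor probes called at least once; red was called higher, blue lower, open circles were not well above background, and dotted lines mark 2-fold. Gria2 and Grin3b are red on Pax6, Esx1, Crebzf, Pdx1, Sox11 and Zfp451, and Grin2d lies below 0 on all 10 factor arrays.

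The array of Esx1 can be set against its own slide, a comparison chosen after seeing the data. Against each of Gatad2b, Etv6 and Nfxl1, 5 member probes (7.46%) were at least 2-fold higher on Esx1, beside 7.27% of all probes, and 0 were 2-fold lower, beside 4.19%. The 5 were probes of Gria2, Gria3, Grik4, Grin2b and Grin3b. Gria2, Gria3 and Grik4 were dim on those 3 arrays, so on Esx1 they stood at least 3.46, at least 2.08 and at least 1.33 in log2 above the highest of them. Grin2b stood 1.21 above the highest, and Grin3b 1.27. On slide 1, Pax6 and both controls shared a slide as well. For 5 of the 6 called probes the 4 slide 3 arrays lay within 0.24 (Grin2c) to 0.41 (Grin3b) of each other, and their differences from the controls cannot be told apart from their slide. Grin2d was the exception, with a range of 1.42 on slide 3 between Crebzf (-0.80) and Pdx1 (0.62).

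The genes around the receptors were counted by list, with 1 probe per gene. For synthesis, transport and clearance of both transmitters, 24 genes were on the array and 13 were detected on all 12. Genes called higher numbered 2 on Pax6 (8.32% of all genes), 0 on Hmga2 (0.329%), 1 on Gatad2b (0.492%), 0 on Etv6 (0.824%), 1 on Esx1 (8.16%), 0 on Nfxl1 (0.231%), 1 on Crebzf (7.65%), 1 on Pdx1 (7.67%), 1 on Sox11 (7.53%) and 1 on Zfp451 (7.42%). Genes called lower numbered 1 on Pax6 (4.60%), 0 on Hmga2 (0.426%), 0 on Gatad2b (0.759%), 1 on Etv6 (0.596%), 2 on Esx1 (5.19%), 1 on Nfxl1 (0.853%), 1 on Crebzf (4.43%), 0 on Pdx1 (4.70%), 1 on Sox11 (4.97%) and 1 on Zfp451 (4.47%). The counts are small, at most 2 of 24 genes, and 1 call can exceed the share of all genes, as on Gatad2b, Etv6 and Nfxl1. They are not read as a result about this list. Over the 13 detected genes the median difference ran from -0.45 on Pax6 to 0.07 on Gatad2b, beside -0.11 to 0.03 over 16074 genes.

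Abat, the transaminase that breaks down GABA, was called higher on 6 arrays. Its levels were 0.59 on Pax6, 1.29 on Esx1, 1.13 on Crebzf, 1.14 on Pdx1, 1.13 on Sox11 and 1.08 on Zfp451, and between -1.43 and -0.999 on the other factor arrays, against -1.29 on EGFP and -1.28 on mock. The folds were 3.67 on Pax6 to 5.94 on Esx1. On those 6 arrays 7.42% (Zfp451) to 8.32% (Pax6) of all genes were called higher.

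Of 37 scaffold and auxiliary genes, 26 were detected on all arrays. Higher calls numbered 4 on Pax6, 4 on Esx1, 3 on Crebzf, 4 on Pdx1, 3 on Sox11 and 2 on Zfp451, and lower calls 1 on Pax6, 3 on Esx1, 1 on Crebzf, 4 on Pdx1, 4 on Sox11 and 2 on Zfp451. There were 0 of either on Hmga2, Gatad2b, Etv6 and Nfxl1. Over all genes, 7.42% (Zfp451) to 8.32% (Pax6) were called higher on those 6 arrays and 4.43% (Crebzf) to 5.19% (Esx1) lower. The median over the 26 genes ran from -0.01 on Crebzf to 0.22 on Pax6, beside -0.09 on Crebzf and -0.04 on Pax6 over all 16074 genes.

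Cnih2, an AMPA receptor auxiliary protein, was called higher on 6 arrays by 3.44- to 3.75-fold. Its levels were 1.23 on Pax6, 1.23 on Esx1 and 1.11 to 1.15 on slide 3, and between -0.91 and -0.45 on the other factor arrays, against -0.61 on EGFP and -0.74 on mock. The subunits of the kinase CaMKII, which acts downstream of NMDA receptors, were called in opposite directions. Camk2a was called higher on Pax6, Esx1, Crebzf, Pdx1 and Sox11 by 3.002- to 8.53-fold, with a level of -1.58 on Esx1 against -4.82 on EGFP and -4.52 on mock. Camk2b was called lower on those arrays and on Zfp451 by 2.38- to 2.94-fold, with a level of -4.22 on Esx1 against -2.67 on both EGFP and mock.

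Among 7 GABA-B and glycine receptor genes, 3 were detected on all arrays, and their median difference ran from -0.47 on Etv6 to 0.92 on Pdx1. Higher calls numbered 2 on Pax6 (8.32% of all genes) and 1 each on Esx1 (8.16%), Crebzf (7.65%), Pdx1 (7.67%), Sox11 (7.53%) and Zfp451 (7.42%). Lower calls numbered 0. On those arrays the GABA-B gene Gabbr1 differed by 0.64 to 0.92 and Gabbr2 by -0.88 to -0.30. Neither was called, and both were named after their values were seen. Glrb, the glycine receptor beta subunit, was called higher on 6 arrays by 4.07- to 5.02-fold. Its levels were -0.62 on Pax6, -0.32 on Esx1, -0.48 on Crebzf, -0.54 on Pdx1, -0.52 on Sox11 and -0.44 on Zfp451, and between -2.85 and -2.55 on the other factor arrays, against -2.51 on EGFP and -2.77 on mock. The 4 genes of serine racemase and glycine handling were called on no array.

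Markers of cell types moved on the same 6 arrays, Pax6, Esx1, Crebzf, Pdx1, Sox11 and Zfp451, where 7.42% to 8.32% of all genes were called higher and 4.43% to 5.19% lower. On the other 4 factor arrays 0.231% (Nfxl1) to 0.824% (Etv6) were called higher, with 0.492% on Gatad2b, and 0.426% (Hmga2) to 0.853% (Nfxl1) lower. Of the 10 neural progenitor markers, 1 was called higher on Pax6, 2 on Esx1, Pdx1, Sox11 and Zfp451 and 3 on Crebzf, while 1 was called lower on Pax6 and Esx1 and 2 on Zfp451. The gene Pax6 was called higher on all 6 arrays (1.35 to 1.80), Sox9 on 5 (1.87 to 2.73) and Fabp7 on Crebzf (at least 1.44), in log2. Nes was called lower on Pax6, Esx1 and Zfp451 (-1.49 to -1.11) and Msi1 on Zfp451 (-1.08). The summed signal of the progenitor markers, in units of the 75th percentile, was 86.8 to 102.2 on the 6 arrays and 103.5 to 130.1 on the other factor arrays, against 103.97 on EGFP and 101.3 on mock. Such a sum adds unlike probes and follows the brightest, so it does not give the direction of a list. The brightest was Vim in this list, Col1a2 for mesenchyme, Aldoc for astrocytes, Mbp for oligodendrocytes and Tnnt2 for muscle.

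Of 10 neuronal markers, 9 were well above background on at least 1 array, Nefm on none and Dcx on 1. Higher calls numbered 4 on Pax6, 1 on Gatad2b, 4 on Esx1, 4 on Crebzf, 4 on Pdx1, 4 on Sox11 and 3 on Zfp451, led by Stmn2 (at least 6.19- to at least 19.3-fold), Snap25 (5.51- to 9.47-fold) and Syt1 (5.31- to 8.54-fold). Nefl was called lower on 5 arrays by 2.44- to 6.67-fold, and Tubb3 and Syp were called on none. The summed signal of the neuronal markers was 1.85 to 2.11 on Pax6, Esx1 and slide 3 and 1.07 to 1.31 on the other factor arrays, against 1.12 on EGFP and 1.17 on mock. Its brightest gene was Map2 or Tubb3, depending on the array. In a bulk sample, more cells of a type and more RNA per cell cannot be told apart.

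Of 7 fibroblast and mesenchyme markers, 3 to 6 were called higher on those 6 arrays. Postn was called higher on all 6 (6.32 to 7.21 in log2) and lower on Hmga2 (-1.26), and Lum was called on none. Dcn was also called higher on Etv6 (2.07). The summed signal of the 7 markers was 237.7 to 257.6 on the 6 arrays and 98.7 to 109.8 on the other factor arrays, against 108.5 on EGFP and 101.8 on mock. Of 7 astrocyte markers, 3 were called higher on Pax6 and on each slide 3 array and 1 on Esx1 and on Hmga2, while Gfap was well above background on 1 array and Gjb6 on none. Their summed signal was 17.4 to 22.5 on the 6 arrays and 7.08 to 9.31 on the other factor arrays, against 9.62 on EGFP and 8.73 on mock.

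Of 7 oligodendrocyte lineage markers 1 to 3 were called higher on the 6 arrays, with Olig1 well above background on none. Sox10 was called lower on Crebzf (-1.20) and Zfp451 (-1.10), and Pdgfra was also called higher on Etv6 (1.19). The summed signal of this list was 1.05 to 1.53 there and 0.80 to 1.07 on the other factor arrays, against 1.10 on EGFP and 1.12 on mock.

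Of 5 muscle markers 1 or 2 were called higher on the 6 arrays and 1 or 2 lower. Tnnt2 was called lower on all 6, while Des was called higher on all 6 and Acta1 on 5. The median difference of the 3 genes detected on all arrays was 0.44 (Pax6) to 1.74 (Sox11) there. The summed signal, which follows Tnnt2, was 3.20 to 4.63 on the 6 arrays and 15.9 to 19.1 on the other factor arrays, against 18.5 on EGFP and 17.4 on mock. Of 5 microglia and blood markers 1 or 2 were called higher on the 6 arrays, with Itgam on no array well above background, and Cx3cr1 was also called higher on Nfxl1 (at least 3.49 in log2). Their summed signal was 0.075 to 0.116 on the 6 arrays and 0.058 to 0.173 on the other factor arrays, the highest on Nfxl1, against 0.138 on EGFP and 0.061 on mock. The part of other cell types, or of the slide, in the receptor values was not tested.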

How the data were processed

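RNA from 12 cultures was hybridised to 12 one-colour arrays. Per the file headers, each deposited spot holds an intensity with background already subtracted (gProcessedSignal), written by Agilent Feature Extraction 10.7.3.1, beside quality flags. The deposited value table equals that intensity on all 12 arrays. No label or header records further normalization by the authors. Probe positions refer to mm7, per the files.

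After spots with an outlier flag were dropped, the 43379 spots were averaged to 41174 probes. Levels are log2 intensities minus each array's log2 75th percentile. Of the member probes, 48 matched RefSeq (GRCm38.p6) by accession, with the same symbol, and 19 by symbol; 6 gene names that fit the rule are not reported here and enter no count of members. Named genes are members called on at least 1 factor array, detected on all 12 or among the 5 brightest, and partner genes called on at least 4 arrays; any other is marked. The members and lists were chosen with earlier results of these data known. The calling rule was tested on simulated data, for probes detected on all 12 arrays only. That test does not cover the higher calls of members, whose probes were dim on at least 1 array. Python 3.11.15, pandas 2.3.3 and limma 3.58.1 (normexp) were used. The number of arrays limits the precision.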

Additional observations from a re-analysis of the deposited data

How the results depend on the processing

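No paired analysis was possible because each group held 1 array. Of the 28 calls of a member probe on an array, all kept their direction and side of the threshold with no floor and with EGFP or mock alone. Both outcomes hold by construction, since taking away the floor can only lower the dimmer side of a call. With quantile normalization 27 stood (Grin2c on Nfxl1 was lost), and with the percentile over detected probes 27 (Grin2d on Sox11 was lost). At 3-fold 16 calls stood, and with normexp (offset 50) 11 did: all 6 of Grin2d and 5 of Gria2. Its offset is added to every signal, which shrinks differences of dim probes. Centring within slides kept 5, all on Pax6 or Esx1; it removes by construction what arrays of a slide share, and it turned Gria3 on Zfp451 to -0.28.

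Counts of calls that moved by over 1.5 times were these. At 3-fold, higher calls were 2 on Esx1, Sox11 and Zfp451, and lower calls 0 on Etv6, Sox11 and Zfp451 and 1 on Nfxl1. With EGFP alone, higher calls were 1 on Hmga2, and lower calls 1 on Hmga2 and Gatad2b, 3 on Etv6, 2 on Esx1 and 4 on Nfxl1. With mock alone, higher calls were 1 on Etv6, and lower calls 1 on Pax6 and 2 on Hmga2, Gatad2b, Esx1 and Sox11. With no floor, higher calls were 1 on Hmga2, and lower calls 2 on Esx1. With normexp, higher calls were 0 on Pax6 and 1 on Esx1, Crebzf, Pdx1, Sox11 and Zfp451, and lower calls 1 on Nfxl1. Centred within slides, higher calls were 0 on Crebzf, Pdx1, Sox11 and Zfp451, and lower calls 0 on Etv6, Esx1, Nfxl1, Crebzf, Sox11 and Zfp451. With detected probes alone, higher calls were 0 on Pax6, Esx1, Crebzf, Pdx1, Sox11 and Zfp451, by construction, since no probe called higher was detected on all arrays. With the percentile over detected probes, higher calls were 4 on Pax6, and lower calls 2 on Etv6 and 0 on Sox11. With quantile normalization, higher calls were 1 on Etv6, and lower calls 2 on Esx1 and 1 on Nfxl1. With the other arrays of its slide as control, chosen after seeing the data, lower calls were 0 on Esx1.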
